A study of Arabidopsis thaliana with 8 samples.

Results

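The 10 genes described here encode NAC transcription factors of stress responses and leaf senescence in Arabidopsis thaliana, and they are 10 of 27826 loci measured and 10 of the 101 measured loci that the gene table names as NAC genes. They are ANAC019 (AT1G52890), ANAC055 (AT3G15500), RD26 (ANAC072, AT4G27410), ATAF1 (AT1G01720), ATAF2 (AT5G08790), NAC102 (AT5G63790), ORE1 (NAC092, AT5G39610), NAP (NAC029, AT1G69490), ORS1 (NAC059, AT3G29035) and JUB1 (NAC042, AT2G43000). The gene table gives the symbol NAC3 to ANAC055 and to ORS1 alike, so each gene was followed by its locus identifier.

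Rosette leaves of 2 genotypes were compared on Affymetrix arrays, with 4 arrays of wild type Col-0 and 4 of a line labelled as a mutant with depleted NAA50 steady-state level (its ecotype label reads animaa50). NAA50 is an acetyltransferase that modifies the N-terminus of proteins. Plants of both genotypes were 7 weeks old, had grown in short days, received no named treatment, and were harvested 2 h after lights on. The labels do not give how the line was made, how many independent lines were used or whether plants were pooled, and p-values therefore measure the spread between these arrays, which may be technical.

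NAC proteins bind DNA through a conserved N-terminal domain and regulate transcription through a variable C-terminal region. ANAC019, ANAC055 and RD26 form a closely related group that responds to drought, salt, abscisic acid and jasmonate, and ATAF1, ATAF2 and NAC102 form a second group that responds to wounding, drought and low oxygen. ORE1, ORS1 and NAP promote leaf senescence, the ordered breakdown of an ageing leaf, whereas JUB1 delays it. In young leaves ORE1 transcripts are held low by the microRNA miR164, and ethylene signalling through EIN2 and EIN3 releases ORE1 as leaves age.

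Expression values were deposited after RMA, which puts all arrays on a common distribution, and were taken as log2. The array median was 2.73 and the 25th percentile 1.66, so values near or below these come from dim probe sets whose signal over background was not shown. The leaf identity of the samples was checked on marker lists. All 5 mesophyll markers lay between 10.63 and 13.33 on every array, whereas the 6 root markers and the 6 seed and flower markers stayed under the array median on every array. The transcript of NAA50 (AT5G11340) was more abundant on the arrays labelled depleted, at 10.24 to 10.52 against 4.23 to 4.75 in wild type, a difference of 5.83 ± 0.14 (SE, n = 4 arrays per group, limma adjusted p = 3.47e-09). If the label refers to the transcript, this measurement goes against it. Whether the labels of the 2 groups were exchanged cannot be told from these values, and if they were, every direction below would turn round. Directions are given for the arrays as labelled.

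Of the 10 genes, 3 rose in the labelled-depleted group and 0 fell. The 3 were ANAC055, RD26 and ATAF2, which all belong to the groups described above as stress-responsive. That description does not exclude a part in senescence. ORE1, ORS1 and NAP, described above as senescence promoters, and the longevity factor JUB1 did not pass the threshold. The threshold was an adjusted p under 0.05 over all 27826 loci in limma. ANAC019, ATAF1 and NAC102 of the stress-responsive groups did not pass it either. ORE1, ORS1 and JUB1 were dim, with wild type means of 2.51, 1.76 and 1.88, so a change in them could be missed. Over all loci 14.5% passed, 6.95% as higher and 7.58% as lower, and after cyclic loess normalization the counts were 2267 higher and 1559 lower in place of 1934 and 2108. The share of these genes that rose, 30%, stands above the 6.95% of all loci, but the genes were chosen with earlier results of these data known, and these shares were not tested against each other. At an unadjusted p under 0.05, 6 of the 10 differed, where 26% of all loci did. The median difference over the 10 genes was 0.48 on the log2 scale, where that over all loci was -0.03, and 9 of the 10 differences were positive, where 44.8% of those over all loci were.

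**Figure D1:**
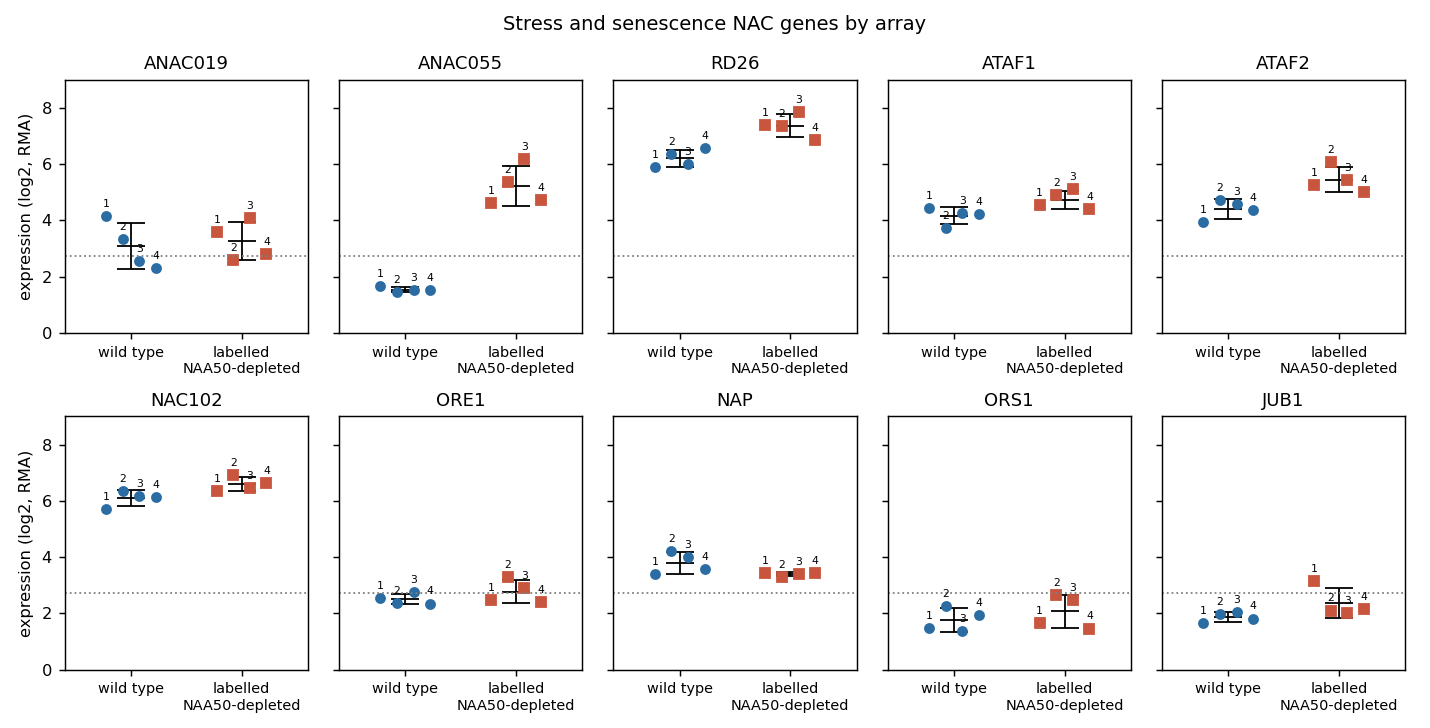
Expression (log2, RMA) of each of the 10 NAC genes on the 4 wild type arrays (circles) and the 4 arrays labelled NAA50-depleted (squares), with replicate numbers beside the points, the mean and SD of each group in black, and the array median of 2.73 as a dotted line. The groups do not overlap for ANAC055, RD26 and ATAF2, and they overlap for the other 7 genes.

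ANAC055, a regulator that acts downstream of MYC2 in jasmonate signalling, showed the largest difference of the 10 genes. Its log2 values were 1.67, 1.44, 1.52 and 1.51 on wild type replicates 1 to 4 and 4.63, 5.36, 6.18 and 4.73 on labelled-depleted replicates 1 to 4. Every wild type value lay near the 25th percentile of the arrays, and every labelled-depleted value lay well above the array median. On the log2 scale the groups differed by 3.69 ± 0.28 (SE, n = 4 arrays per group). As a ratio of RMA values this is 12.9-fold with a 95% interval of 8.36 to 19.8 (limma adjusted p = 1.20e-05). Signal over background was not shown for the wild type values, so neither the ratio nor its interval fixes how many times the transcript differed.

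RD26, an abscisic acid and drought response factor, was already bright in wild type leaves. It measured 5.90, 6.35, 6.02 and 6.56 on the wild type arrays and 7.40, 7.35, 7.85 and 6.87 on the labelled-depleted arrays. The lowest labelled-depleted value, that of replicate 4, was above the highest wild type value. The gene rose 2.24-fold (95% interval 1.63 to 3.08), a difference of 1.16 ± 0.21 (SE, n = 4 arrays per group, limma adjusted p = 0.00310).

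ANAC019, a close relative of ANAC055, did not follow it. Its values were 4.14, 3.35, 2.57 and 2.31 in wild type and 3.57, 2.59, 4.08 and 2.82 on the labelled-depleted arrays. The groups overlapped almost entirely, with the highest value of all on wild type replicate 1. The difference was 0.17 ± 0.41 (SE, n = 4 arrays per group, limma adjusted p = 0.858), and its 95% interval of -0.72 to 1.06 leaves out a change as large as that of ANAC055. Leaving out single arrays moved it between -0.10 (labelled-depleted replicate 3) and 0.52 (wild type replicate 1), and it also turned negative when wild type replicate 3 (-0.004) or 4 (-0.09) was left out.

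The contrast between these relatives was described by the difference of their values within each array. The comparison was added after the values had been seen, when ANAC055 was known to differ most and ANAC019 little. Its p-values for these genes are therefore no independent evidence of a contrast. Signal over background was not shown for the wild type values of ANAC055, so the sizes of its contrasts are uncertain. ANAC055 minus ANAC019 was -1.56 ± 0.77 (SD, n = 4) in wild type and 1.96 ± 0.71 (SD, n = 4) on the labelled-depleted arrays, and the 2 ranges, -2.47 to -0.80 and 1.05 to 2.77, did not overlap. The groups thus differed by 3.51 in this measure, with a two-sided exact permutation p of 0.0286, the smallest that 4 against 4 arrays allow, and 0.10 after Benjamini-Hochberg adjustment over the 7 pairs of relatives compared. ANAC055 minus RD26 differed between the groups by 2.52 (exact permutation p = 0.0286, adjusted 0.10), and RD26 minus ANAC019 by 0.99 (exact permutation p = 0.143, adjusted 0.25).

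ANAC019 was among the most variable genes between replicates of one genotype. Its pooled within-group SD of 0.76 exceeded that of 99.2% of all loci, where the median locus had 0.21, and the pooled SDs of ORS1 (0.51) and ANAC055 (0.51) exceeded that of 97.0% of loci each. For ANAC055 the spread lay in the labelled-depleted group, with an SD of 0.72 against 0.10 in wild type. Within wild type, ANAC019 was highest on replicate 1, and within the labelled-depleted group on replicate 3. Of the 8 listed targets of ANAC019, ANAC055 and RD26, 3 had the highest value of each group on the same arrays, as had 1 of the 4 listed jasmonate regulators, MYC2, and 7.1% of all loci. The regulators COI1, MYC3 and MYC4 did not. MYC2, the basic helix-loop-helix factor that activates ANAC019 and ANAC055, measured 5.34 on wild type replicate 1 against 4.42 to 4.97 on the others, and 5.63 on labelled-depleted replicate 3 against 3.93 to 4.98. VSP1, a storage protein gene induced by jasmonate, measured 7.28 against 4.76 to 6.57 in wild type, and 8.38 against 2.57 to 7.73 on the labelled-depleted arrays. BSMT1, a salicylic acid methyltransferase, and LOX2, a lipoxygenase of jasmonate synthesis, also had their highest values on these arrays, at 3.97 and 2.63 for BSMT1 and at 11.95 and 12.11 for LOX2. MYC2, VSP1, BSMT1 and LOX2 did not differ between the genotypes past the threshold (adjusted p = 0.897, 0.878, 0.871 and 0.975 in limma), and they were singled out after their values had been seen. ANAC055 was also highest on wild type replicate 1 and labelled-depleted replicate 3, but its step between the genotypes was far larger than its range within either.

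ATAF2, a wound-induced factor that also represses genes of brassinosteroid inactivation, rose. Its values were 3.93, 4.73, 4.58 and 4.37 in wild type and 5.26, 6.07, 5.44 and 5.01 on the labelled-depleted arrays, with no overlap. It rose 2.06-fold (95% interval 1.45 to 2.93), a difference of 1.04 ± 0.23 (SE, n = 4 arrays per group, limma adjusted p = 0.0104).

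ATAF1 and NAC102, the relatives of ATAF2, differed in the same direction by smaller amounts and did not pass the threshold. ATAF1, a regulator of abscisic acid synthesis and of ORE1, measured 4.43, 3.73, 4.28 and 4.22 in wild type and 4.54, 4.90, 5.10 and 4.40 on the labelled-depleted arrays. The groups overlapped by 1 labelled-depleted array, replicate 4, which lay just under wild type replicate 1. The difference was 0.57 ± 0.19 (SE, n = 4 arrays per group, 95% interval 0.16 to 0.99, adjusted p = 0.0697 in limma), and without labelled-depleted replicate 4 it was 0.68 and passed (adjusted p = 0.0427).

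NAC102, which is induced by low oxygen, measured 5.69, 6.36, 6.16 and 6.15 in wild type and 6.33, 6.91, 6.46 and 6.63 on the labelled-depleted arrays. Labelled-depleted replicate 1 lay just under wild type replicate 2, and the other labelled-depleted arrays lay above all of wild type. The difference was 0.49 ± 0.17 (SE, n = 4 arrays per group, 95% interval 0.12 to 0.86, adjusted p = 0.0820 in limma). It passed after cyclic loess normalization, at 0.60 (adjusted p = 0.0386), and with the replicate number as a block, at 0.49 (adjusted p = 0.0367), although nothing in the labels pairs the arrays.

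The 3 relatives were not shown to differ from each other in their response. ATAF2 minus ATAF1 differed between the groups by 0.47 (exact permutation p = 0.229, adjusted 0.32), ATAF2 minus NAC102 by 0.55 (exact permutation p = 0.0571, adjusted 0.133) and ATAF1 minus NAC102 by 0.08 (exact permutation p = 0.857, adjusted 0.886). These p-values are two-sided, and the 4 arrays per group limit what such a comparison can show.

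**Figure D2:**
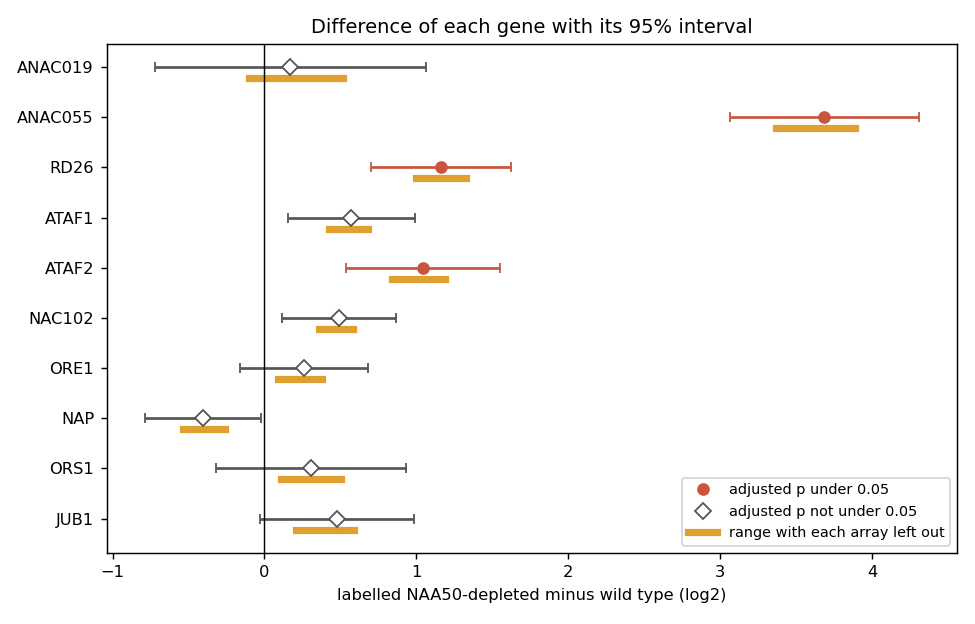
Difference between the arrays labelled NAA50-depleted and wild type (log2) for each of the 10 genes, with the 95% interval of the fit as a whisker and the range over the fits that leave out each array in turn as a bar. ANAC055 lies at 3.69, RD26 at 1.16 and ATAF2 at 1.04, filled where the adjusted p is under 0.05. The interval of NAP lies below 0 without passing the adjusted threshold, and the bar of ANAC019 crosses 0.

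ORE1, a central activator of leaf senescence and age-induced cell death, was dim in both genotypes. It measured 2.55, 2.38, 2.75 and 2.35 in wild type and 2.46, 3.29, 2.90 and 2.42 on the labelled-depleted arrays. All values but those of labelled-depleted replicates 2 and 3 and wild type replicate 3 lay below the array median. The difference was 0.26 ± 0.19 (SE, n = 4 arrays per group, adjusted p = 0.458 in limma), with a 95% interval of -0.16 to 0.68. The value was 0.09 without labelled-depleted replicate 2.

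ORS1, a close relative of ORE1 and like it a promoter of senescence, measured 1.48, 2.26, 1.37 and 1.96 in wild type and 1.66, 2.66, 2.49 and 1.46 on the labelled-depleted arrays. The groups overlapped, and all 8 values lay below the array median. The difference was 0.30 ± 0.28 (SE, n = 4 arrays per group, adjusted p = 0.576 in limma, 95% interval -0.32 to 0.93). Leaving out single arrays moved it between 0.11 (labelled-depleted replicate 2) and 0.51 (labelled-depleted replicate 4). ORE1 minus ORS1 differed between the groups by -0.04 (exact permutation p = 0.886, adjusted 0.886).

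NAP, which links abscisic acid to senescence through the phosphatase gene HAI1 (SAG113) and the aldehyde oxidase gene AAO3, was the 1 gene of the 10 with a lower mean on the labelled-depleted arrays. It measured 3.40, 4.23, 3.99 and 3.57 in wild type, and 3.44, 3.31, 3.41 and 3.42 on the labelled-depleted arrays. Wild type replicate 1 lay within the labelled-depleted range and the other 3 wild type arrays lay above it. The difference was -0.40 ± 0.17 (SE, n = 4 arrays per group, adjusted p = 0.161 in limma, 95% interval -0.78 to -0.03), and it was -0.26 without wild type replicate 2.

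JUB1, a factor induced by hydrogen peroxide that prolongs leaf life, measured 1.65, 1.98, 2.06 and 1.82 in wild type and 3.16, 2.10, 2.02 and 2.14 on the labelled-depleted arrays. Labelled-depleted replicate 1 stood apart, and the other 3 arrays of that group lay at the upper edge of wild type. The difference was 0.48 ± 0.23 (SE, n = 4 arrays per group, adjusted p = 0.222 in limma, 95% interval -0.03 to 0.98). Without labelled-depleted replicate 1 it was 0.21 (adjusted p = 0.412).

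The groups did not overlap at 3 of the 10 genes, where 18.8% of all loci had groups without overlap. All 10 genes passed the filter on dim loci that served as an alternative, which kept 21048 loci. ANAC055 passed it through its 4 labelled-depleted arrays and 1 wild type array, so for this gene the filter is no separate check of the difference.

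Of the 91 other NAC loci, 67 had a mean below the array median, against 13892 of all 27826 loci. Of the 91, 7 rose and 2 fell, which is 7.69% and 2.20% where all loci gave 6.95% and 7.58%, and their median difference was 0.01. NAC090, a repressor in the control of leaf senescence and salicylic acid responses, rose by 1.92 ± 0.30 from a wild type mean of 2.67 near the array median (adjusted p = 0.00131). NAC062, a membrane-tethered factor of cold and endoplasmic reticulum stress, rose by 1.42 ± 0.18 (adjusted p = 0.000339), and NAC036, whose overexpression reduces leaf growth, by 1.36 ± 0.22 (adjusted p = 0.00153; SE, n = 4 arrays per group, limma). The 2 that fell were NAC041, at -0.99 ± 0.22 (adjusted p = 0.00984), and VNI2, a factor that delays leaf senescence, at -0.84 ± 0.13 (adjusted p = 0.00110). VNI2 was bright in wild type, with values of 8.18, 8.16, 8.03 and 8.08, and measured 7.20, 7.21, 7.09 and 7.59 on the labelled-depleted arrays, with no overlap.

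Among 17 NAC genes listed for their kinship or shared role with the 10, 4 rose and 1 fell, against 6.95% and 7.58% of all loci, and the median difference was 0.34. Beside NAC090, NAC062 and NAC036 the 4th that rose was NAC082, a factor of the nucleolar stress response, at 0.51 ± 0.12 (SE, n = 4 arrays per group, adjusted p = 0.0153 in limma). The 1 that fell was VNI2. Among the 6 transcripts described as targets of miR164, ORE1 included, 0 passed the threshold and 1 had an unadjusted p under 0.05. The largest difference among them was that of NAC080, at 0.31 ± 0.14 (adjusted p = 0.172), and all 6 had means below the array median. Of the 3 miR164 precursor loci on the array 0 passed and 0 had an unadjusted p under 0.05. The largest difference was that of MIR164B, at -0.27 ± 0.20 (adjusted p = 0.458, and between -0.43 and -0.08 with single arrays left out, the extremes being wild type replicates 4 and 1), and mature microRNA was not measured by these values.

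**Figure D3:**
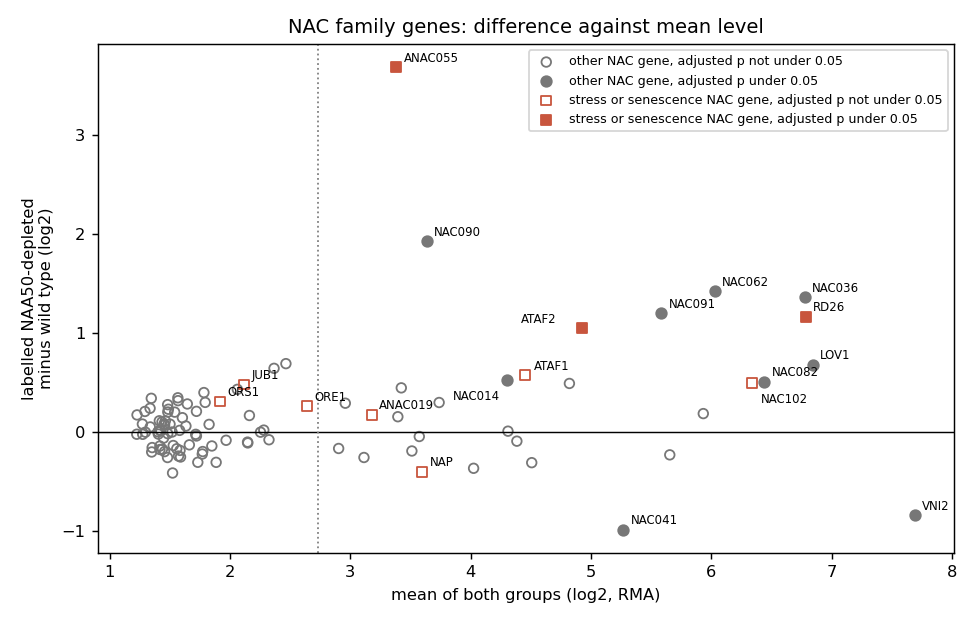
Difference between the arrays labelled NAA50-depleted and wild type (log2) against the mean of both groups (log2, RMA) for the 10 stress and senescence NAC genes (squares) and the 91 other NAC loci (circles), filled where the adjusted p is under 0.05. Most of the family lies left of the dotted array median of 2.73. ANAC055 stands highest at 3.69, and VNI2 and NAC041 are the filled points below 0.

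The genes beside the 10 on the chromosomes were examined for shared change. Of the 20 measured loci that lie directly before or after them in the TAIR10.1 gene table, 2 passed the threshold, or 10%, where all loci gave 14.5%. SHA1, beside NAC102, fell by 0.57 ± 0.15 (limma adjusted p = 0.0227; SE, n = 4 arrays per group). Its call was lost with the replicate block, after cyclic loess, and when any of wild type replicates 3 and 4 and labelled-depleted replicate 4 was left out, at -0.57 to -0.47. AT3G29034, beside ORS1, rose by 1.19 ± 0.21 (adjusted p = 0.00304). ANAC019 and ANAC055 each lie beside another NAC gene, and neither neighbour passed. NAC018, beside ANAC019, differed by -0.31 ± 0.24 (adjusted p = 0.483; -0.17 and -0.48 without wild type replicates 3 and 1), and NAC056, beside ANAC055, by 0.49 ± 0.22 (adjusted p = 0.183; 0.32 without wild type replicate 1). The locus on the other side of ANAC055, AT3G15490, differed by 0.03 ± 0.15 (adjusted p = 0.933).

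The loci whose values over the 8 arrays were most like those of ANAC055 were sought among all loci outside the 10 genes, by the root mean square difference between values centred on their own mean. The nearest were PHI-1, a phosphate-induced gene of the exordium family, at 0.28, SIP2, a gene of raffinose metabolism, at 0.35, and WRKY18, a defence transcription factor, at 0.35. PHI-1 rose from 1.12 to 1.74 in wild type to 4.61 to 5.50 on the labelled-depleted arrays, and SIP2 from 4.42 to 4.83 to 7.18 to 8.47. WRKY18 rose from 4.50 to 4.82 to 7.99 to 8.77. Since they were chosen for this likeness, the differences between the genotypes follow from the choice.

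Genes known to act upstream of these factors were examined as a list. Of 15 regulators in ethylene, jasmonate, abscisic acid, light and strigolactone signalling, 1 rose and 2 fell, where all loci gave 6.95% and 7.58%, and the median difference was -0.10. EIN3, the ethylene response factor that activates ORE1, rose by 0.47 ± 0.13 (limma adjusted p = 0.0292; SE, n = 4 arrays per group). That call was lost with the replicate block, and when any of wild type replicates 1 and 2 and labelled-depleted replicates 1 to 3 was left out, at 0.40 to 0.48. MYC4, a close relative of MYC2 in the jasmonate pathway, fell by 1.21 ± 0.19 (adjusted p = 0.00133), from 2.63 to 3.53 in wild type to 1.75 to 2.28 on the labelled-depleted arrays. ABF2, a bZIP activator of abscisic acid responses, fell by 0.96 ± 0.17 (adjusted p = 0.00255), from 4.85 to 5.15 in wild type to 3.60 to 4.40. MYC2 itself differed by -0.10 ± 0.33, and its sign was not stable. Leaving out single arrays moved it between -0.41 (labelled-depleted replicate 3) and 0.16 (labelled-depleted replicate 4), and it was also positive when replicate 1 of wild type (0.07) or of the labelled-depleted group (0.02) was left out.

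Of 30 genes described elsewhere as targets of 1 or more of the 10 factors, 3 rose and 3 fell, which is 10% in each direction where all loci gave 6.95% and 7.58%, and the median difference was 0.02. Each of the 30 was listed under 1 factor or group of factors only, although it may be a target of others. Counts by factor therefore depend on how the lists were drawn. For the group of ANAC019, ANAC055 and RD26, 2 of 8 listed targets rose and 0 fell. ERD1, a chloroplast Clp protease regulator whose promoter these 3 factors bind, measured 6.52, 6.87, 6.79 and 6.93 in wild type and 7.79, 7.70, 7.76 and 7.49 on the labelled-depleted arrays. It rose by 0.91 ± 0.13 without overlap of the groups (SE, n = 4 arrays per group, adjusted p = 0.000686 in limma). ICS1, the salicylic acid synthesis enzyme that these factors repress, rose by 0.56 ± 0.17 (adjusted p = 0.0433). That call was lost with the replicate block, with array weights and without any single array but wild type replicate 3, at 0.46 to 0.61.

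For ORE1, 1 of 9 listed targets fell and 0 rose, a share of 11.1% lower that is near the 7.58% of all loci. The counts for the other factors are as small and can be read only against that share and the 6.95% higher. NYC1, a chlorophyll b reductase that ORE1 activates during chlorophyll loss, fell by 1.61 ± 0.30 (limma adjusted p = 0.00350; SE, n = 4 arrays per group), from values of 4.01 to 5.46 in wild type to 2.50 to 3.55. For NAP, 0 of 2 listed targets passed and 1 had an unadjusted p under 0.05. This was HAI1, at -0.40 ± 0.14 (adjusted p = 0.0971), which passed without wild type replicate 3, at -0.51 (adjusted p = 0.0326). For ATAF1 and ATAF2, 1 of 6 listed targets fell and 0 rose, ORE1 among the 5 that did not pass. GLK1, an activator of chloroplast genes that ATAF1 represses, measured 9.03, 9.06, 8.95 and 8.80 in wild type and 7.31, 6.48, 7.11 and 6.74 on the labelled-depleted arrays. It fell by 2.05 ± 0.17, or 4.14-fold (adjusted p = 2.24e-05), while ATAF1 itself had not passed the threshold.

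For JUB1, 1 of 6 listed targets rose and 1 fell, where 6.95% of all loci were higher and 7.58% lower. DREB2A, a drought and heat response factor that JUB1 activates, rose by 0.89 ± 0.18 (limma adjusted p = 0.00648; SE, n = 4 arrays per group). It was dim in both groups, at 1.27 to 1.76 in wild type and 2.00 to 2.82 on the labelled-depleted arrays. Signal over background was not shown for such values, so the size of the rise is uncertain. RGL1, a DELLA repressor of gibberellin responses, fell by 0.83 ± 0.22 (adjusted p = 0.0275), and its call was lost when any array but wild type replicate 4 and labelled-depleted replicate 3 was left out, at -0.84 to -0.65.

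Of 14 senescence marker genes, 7 rose and 0 fell, or 50% where 6.95% of all loci were higher, and the median difference was 0.55. The 7 that did not pass, SAG12 among them, all had means below the array median, so a change in them could be missed. The 3 largest increases were those of BCB, a blue copper protein, at 3.61 ± 0.23, SAG21, a late embryogenesis abundant-like protein, at 2.73 ± 0.22, and SEN1, which is also induced by darkness, at 2.72 ± 0.32 (SE, n = 4 arrays per group, adjusted p at most 0.000222 in limma). SAG12 is the cysteine protease gene used as a marker of developmental senescence. It measured 1.05 to 1.85 on all 8 arrays, around their 25th percentile of 1.66, and differed by 0.05 ± 0.16 (adjusted p = 0.901). Its difference was -0.10 without labelled-depleted replicate 4. The list was drawn up with earlier results of these data known and is no independent evidence of a direction.

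Marker genes of some leaf cell types moved with the genotype, and fewer cells of a type cannot be told apart from less RNA per cell in whole leaves. Of 8 epidermis and cuticle markers 3 fell and 0 rose, where 7.58% of all loci were lower and 6.95% higher, and these shares hold for the marker lists that follow. They were CER1, at -1.89 ± 0.32, PDF2, at -0.84 ± 0.13, and CER5, at -0.53 ± 0.13 (SE, n = 4 arrays per group, limma adjusted p = 0.00208, 0.000921 and 0.0188). The call of CER5 was lost after cyclic loess, at -0.40, and when any of wild type replicates 2 and 4 and labelled-depleted replicate 1 was left out, at -0.51. The summed linear level of the 8 markers was 1885 to 1921 on the wild type arrays and 1216 to 1597 on the labelled-depleted arrays. Such a sum is set mostly by the brightest genes of a list, and 5 of these 8 markers did not pass. Of 7 guard cell markers 2 fell and 0 rose, KAT1 at -0.92 ± 0.21 and SLAC1 at -0.60 ± 0.15 (adjusted p = 0.0127 and 0.0211). The call of SLAC1 was lost when any of wild type replicates 1 and 4 and labelled-depleted replicates 1 and 2 was left out, at -0.59 to -0.49. The guard cell sums were 113 to 173 and 89.4 to 104. Of 8 vascular markers SWEET12 rose, at 0.58 ± 0.16 (adjusted p = 0.0329), and its call was lost without any single array but labelled-depleted replicate 3, at 0.44 to 0.62. The vascular sums overlapped, at 149 to 249 and 203 to 253. Of 5 mesophyll markers 0 passed, with RCA showing the largest difference at -0.08, and the root and the seed and flower markers also gave 0 calls, with the largest differences at PLT1 (0.44) and LEC1 (0.25). Of these 3 lists, 1 root marker and no other marker had an unadjusted p under 0.05. The mesophyll markers, at 10.63 to 13.33, lay near the top of the deposited scale, which ended at 13.71. RBCS1A read 13.33 on every array of both groups but wild type replicate 2, at 13.27. A change in mesophyll markers could go unseen there, so the 0 calls do not show that they were unchanged. The part of epidermis and guard cell markers in the differences of the NAC genes was not tested.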

How the data were processed

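The authors deposited 1 table of RMA values for 27826 loci on 8 Affymetrix arrays, with RMA named per the submitters' processing notes. The sources used here give no RMA version, chip definition or log base. The deposited values, 0.69 to 13.71, are read as log2, the usual scale of RMA, and all 8 arrays held the same sorted values, so a global shift of transcripts cannot be seen. Probe specificity among related NAC genes was not examined.

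Groups and replicate numbers came from the sample titles. For every locus the 4 and 4 arrays were compared in a linear model of group alone with limma 3.58.1 (lmFit, eBayes) in R 4.3.3, with no filter on dim loci, with two-sided p-values, Benjamini-Hochberg adjustment over the 27826 loci and a threshold of 0.05. Pairs of relatives were compared by an exact permutation test over the 70 regroupings of the arrays. The fit was tested on simulated data for all 27826 loci with 200 changed. It recovered 76.4% of the 106 loci changed by 1 on the log2 scale and 97.9% of the 94 changed by 2, and 9 of its 182 calls were false. The simulated noise was independent between loci, and far fewer loci were changed than the 14.5% called in the data. These rates therefore need not hold for the comparison reported here. The number of arrays limits the precision.

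The 10 genes, the 16 other lists and the tests were chosen with earlier results of these data known. Named genes were the 10, NAA50, from each list and from the rest of the NAC family up to 3 called genes in each direction, by size, or the largest change where none passed, and the 3 loci most like the gene with the largest difference. MYC2, SAG12, NAC018, NAC056, VSP1, BSMT1, LOX2, NAC082, SHA1, AT3G15490 and AT3G29034 were added after their values were seen, as was the comparison of pairs and of chromosomal neighbours. Of the loci, 27241 matched the TAIR10.1 gene table and 585 did not. NAC loci were found by the names in that table, and NTL9, a NAC-like gene that the name rule missed, is not counted among them. No sequence of the 10 genes is shown here.

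Same-numbered arrays of the 2 groups did not deviate together when all loci were taken as a whole. The alternatives tried were a replicate block, quantile and cyclic loess normalization, a filter on dim loci (4 or more arrays past the 25th percentile), a variance model with trend and robust fitting, array weights, each array left out, an adjusted p of 0.01, and a test against a log2 change of 0.25. Slides and scan dates were not analysed here, and any batch that followed the groups could not be separated from genotype.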

Additional observations from a re-analysis of the deposited data

Results flagged for a closer look

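Dixon's ratio was computed for 106 groups of 4 values to find single arrays that stood apart, and 6 did (5.66%), where chance gives about 1 in 20. Among the 10 NAC genes this was JUB1 on labelled-depleted replicate 1, at 3.16 where the nearest other array had 2.14. Among other genes named, BSMT1 measured 3.97 on wild type replicate 1, HAI1 1.74 on wild type replicate 3, and LEC1 1.77 on wild type replicate 1. RCA measured 11.52 on labelled-depleted replicate 1, which lay within the wild type range of 11.49 to 11.59. The other labelled-depleted arrays all read 11.44 for RCA, and with such ties any gap gives the largest possible ratio. SHA1 measured 5.45 on labelled-depleted replicate 4.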

How the results depend on the processing

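ANAC055 and RD26 passed the threshold under all 16 alternatives. Quantile normalization, counted among them, could change nothing because the arrays already held the same sorted values, and ANAC055 passed the filter on dim loci through its labelled-depleted arrays. The differences of ANAC055 and RD26 were 3.37 to 3.88 and 1.00 to 1.33 with each array left out. ATAF2 passed under all but the adjusted p of 0.01, where its adjusted p was 0.0104. The count of the 10 genes that rose was 2 at that threshold, 4 with the replicate block and after cyclic loess (with NAC102), 4 without labelled-depleted replicate 4 (with ATAF1) and 3 otherwise, and 0 fell under every alternative. Their median difference stayed between 0.46 and 0.55. Same-numbered arrays correlated in their deviations at -0.05 to 0.04 across loci, and arrays of unlike number at -0.065 to 0.104. This gave no sign of pairing over all loci, but it could not show a pairing confined to some loci. At an adjusted p of 0.01 and in the test against a change of 0.25, respectively, 1228 and 1115 of all loci were higher, 1010 and 798 lower, and 7 and 7 listed genes outside the 10 fell in place of 11. In the test against 0.25, 4 other NAC loci rose in place of 7. Signs turned for ANAC019 (-0.10 to 0.52 with each array left out), MYC2 (-0.41 to 0.16), VSP1 (-0.31 to 1.63), BSMT1 (-0.44 to 0.42), SAG12 (-0.10 to 0.17) and LOX2 (-0.20 to 0.20), all uncalled. LOX2, at -0.02 as reported, was 0.099 after cyclic loess and 0.0201 with array weights, and RCA, at -0.08 as reported, was 0.036 after cyclic loess. The cause was not tested. Dim values limit the folds of ANAC055, ORS1, JUB1 and ORE1.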
